A study of Mus musculus with 16 samples.

Results

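The 37 genes described here encode glycoproteins and proteoglycans of the extracellular matrix together with a few enzymes and chaperones that make it. They were chosen by gene symbol from a fixed list, and all 37 were found, each on 1 row, among the 18990 genes of the deposited expression table. The list was drawn up with earlier results of these data known. Counts of its genes beside the share of all genes are therefore descriptive. The table covers 16 RNA sequencing libraries of mouse embryonic fibroblasts (MEFs) at an early stage of reprogramming. All cells were wild-type BL6 fibroblasts at passage 2 that carried lentiviral rtTA and the doxycycline-inducible STEMCCA cassette, which encodes Oct4, Sox2, Klf4 and Myc (OSKM), and all were grown with doxycycline, LIF, ascorbic acid, the GSK3 inhibitor Chiron and the TGF-β receptor inhibitor Alk5i. Cells received 40 nM of a non-targeting siRNA (nt control) or of pooled siRNAs against *Wdr5* (siWdr5), *Brca1* (siBrca1) or *Bard1* (siBard1), and were collected on day 3 or day 6 of induction. Each of the 8 groups held 2 libraries from independent experiments. In bulk RNA of such cultures, fewer cells of a type and less RNA per cell cannot be told apart.

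The matrix around fibroblasts is a network of fibronectin, collagen and elastic fibres. Adhesive glycoproteins link it to integrins, small leucine-rich proteoglycans bind collagen fibrils and set their spacing, fibrillins and fibulins form the microfibrils on which elastin is laid down, and matricellular proteins such as thrombospondins and tenascin sit in the matrix mainly to signal to cells. Fibroblasts that turn into an epithelium during reprogramming give up much of this network, and TGF-β and mechanical tension are known as strong inducers of it.

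Expression is given in CPM, which are 2 to the power of the deposited log2 values and so include a small prior count. The CPM are read counts scaled to an effective library size. That size was the number of reads times a factor of 0.925 (siWdr5 day 3 replicate 2) to 1.12 (siBard1 day 3 replicate 2). The libraries held 11169738 to 26832534 reads, and 3 reads correspond to 0.115 to 0.260 CPM. Of the 37 genes, 36 passed the filter for testing (log2 CPM averaging 0 or more across libraries). *Mfap4*, a microfibril-associated protein, did not, with 1 to 21 reads per library. Each of the siRNAs lowered its own target at day 3. *Wdr5* was at 132 and 130.5 CPM in the nt control and at 50.6 and 55.3 CPM in siWdr5, *Brca1* at 82.4 and 77.98 CPM against 37.5 and 19.4 CPM in siBrca1, and *Bard1* at 30.5 and 29.1 CPM against 18.0 and 20.8 CPM in siBard1. *Bard1* was lower still in the other knockdowns (13.9 and 15.3 CPM in siWdr5, 14.4 and 9.07 CPM in siBrca1). *Brca1* was also below the nt control in siWdr5 (40.5 and 48.4 CPM) and siBard1 (57.8 and 66.1 CPM). *Wdr5* was likewise lower in siBrca1 (74.3 and 68.9 CPM) and siBard1 (96.6 and 91.9 CPM). Each knockdown of day 3 thus had lower levels of all the targeted genes and not of its own target alone. At day 6 *Wdr5* was at 91.8 and 98.1 CPM in the nt control and 85.5 and 72.4 CPM in siWdr5, while *Brca1* (33.2 and 42.6 against 35.9 and 40.1 CPM) and *Bard1* (11.3 and 14.0 against 12.6 and 14.5 CPM) overlapped between control and knockdown.

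Per kilobase of exon and averaged over the 16 libraries, *Thbs1* stood highest of the 37 genes with 758 CPM per kb. It was followed by *Spp1* (401 CPM per kb), *Serpinh1* (383 CPM per kb), *Sparc* (277 CPM per kb) and *Fn1* (223 CPM per kb). The order differed between the days. In the nt control at day 3 *Thbs1* had 442 and 509 CPM per kb and *Spp1* 97.9 and 87.9, whereas at day 6 *Thbs1* had 171 and 167 and *Spp1* 990 and 795, and *Spp1* was above *Thbs1* in all libraries of day 6 but siWdr5 replicate 2. *Comp* (0.549 CPM per kb), *Aspn* (0.537 CPM per kb), *Mfap4* (0.382 CPM per kb) and *Eln* (0.263 CPM per kb) were the lowest. Together the 37 genes took 1.37% and 1.52% of all reads in the nt control at day 3. The share was higher in every knockdown library of that day, at 2.94% and 2.96% in siWdr5, 2.98% and 3.48% in siBrca1, and 2.31% and 2.22% in siBard1. At day 6 the shares were 1.25% and 1.21% in the nt control, 1.96% and 2.21% in siWdr5, 1.42% and 1.53% in siBrca1, and 1.56% and 1.32% in siBard1, so that all knockdown libraries still lay above both control libraries.

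**Figure D1:**
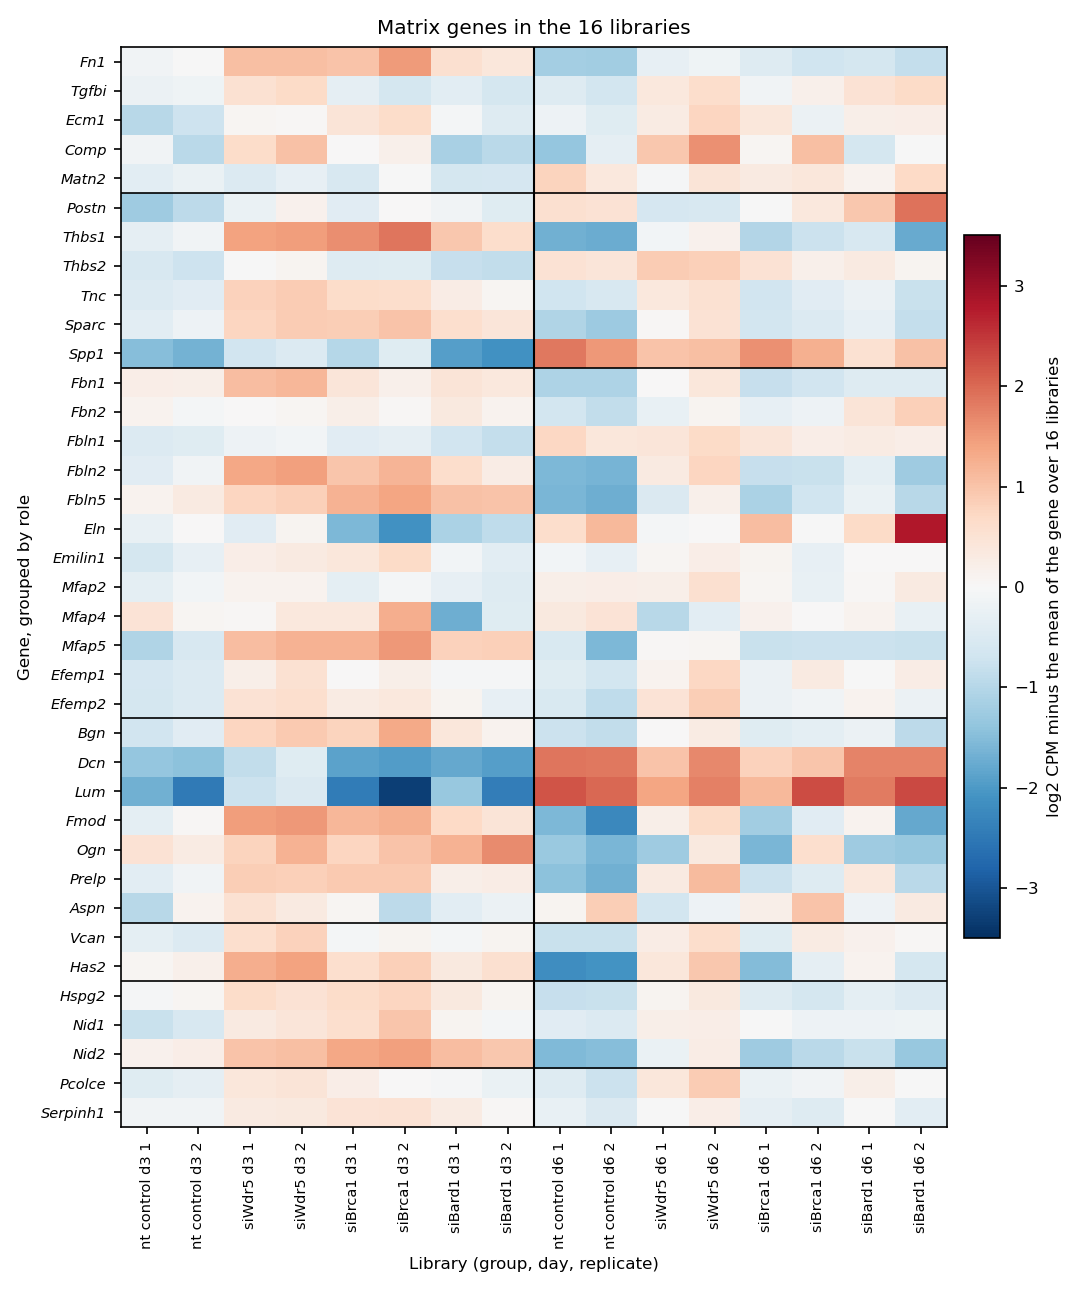
Each row is 1 of the 37 genes, grouped by role, and each column 1 of the 16 libraries, with day 3 left of the vertical line and day 6 right of it. Colour shows the log2 CPM of a library minus the mean of that gene over the 16 libraries. *Mfap5*, *Thbs1*, *Sparc* and *Fn1* are red in all knockdown libraries of day 3. In both nt control libraries of that day *Mfap5* is blue and *Thbs1* and *Sparc* are faintly blue, while *Fn1* is close to white in replicate 2. *Lum*, *Dcn* and *Spp1* are blue at day 3 and red at day 6 in every group.

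At day 3, depletion of *Wdr5* was accompanied by the broadest rise. In siWdr5 31 of the 36 tested genes were higher than in the nt control and none was lower (limma, adjusted p < 0.05), where 18.3% of all 14028 tested genes were higher and 16.8% lower. Their median log2 fold change was 0.90, against -0.04 over all tested genes. The 5 genes that did not pass were *Aspn*, *Eln*, *Fbn2*, *Matn2* and *Mfap2*. Of the 31 calls, 24 held under every alternative setting and with each library left out in turn (here and below, the added fold threshold is not counted among these settings). The calls lost without a library are named next, and a further call was lost under another setting alone. Without nt control replicate 2 the calls of *Comp*, *Fbln1*, *Hspg2*, *Lum*, *Ogn* and *Serpinh1* were lost (adjusted p = 0.0586 to 0.142), without siWdr5 replicate 2 those of *Comp*, *Fbln1*, *Lum*, *Ogn* and *Serpinh1* (0.0677 to 0.214), and without replicate 1 of either group those of *Fbln1*, *Hspg2* and *Serpinh1* (0.0627 to 0.213).

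In siBrca1, 24 genes were higher and 2 were lower than in the nt control at day 3, where 25.4% of all genes were higher and 21.8% lower. The median was 0.66, against 0.00 over all tested genes. The 2 lower genes were *Dcn* and *Eln*. Of these 26 calls, 21 held with every left-out library and under every alternative in which the gene was tested (*Eln* was not tested under the stricter filter). Besides the calls named next, a further call was lost under another setting alone. Those of *Dcn*, *Ogn* and *Pcolce* were lost without nt control replicate 1 (adjusted p = 0.0586 to 0.0703), and those of *Ogn* and *Vcan* without nt control replicate 2 (0.113 to 0.235) or without siBrca1 replicate 2 (0.0546 to 0.138).

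In siBard1, 18 genes were higher and 1, *Dcn*, was lower than in the nt control at day 3, where 8.67% of all genes were higher and 5.87% lower, with a median of 0.38 against -0.02 over all tested genes. These calls rested on single libraries more than those of the other knockdowns. Without nt control replicate 1 the calls of *Fbln5*, *Mfap5*, *Nid2* and *Ogn* remained, 4 in all, and the other 15 had adjusted p-values of 0.0594 to 0.289. Without siBard1 replicate 1, 9 calls remained, and 13 remained without nt control replicate 2 or without siBard1 replicate 2. *Fbln5*, *Mfap5* and *Nid2* kept their calls under every alternative and every left-out library.

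The 3 knockdowns of a day were compared with the same 2 nt control libraries, so their lists are not independent of each other. The 18 genes higher in siBard1 were also higher in siWdr5 and siBrca1: *Bgn*, *Ecm1*, *Efemp1*, *Efemp2*, *Fbln2*, *Fbln5*, *Fmod*, *Fn1*, *Mfap5*, *Nid1*, *Nid2*, *Ogn*, *Postn*, *Prelp*, *Sparc*, *Thbs1*, *Tnc* and *Vcan*. A further 6 passed in siWdr5 and siBrca1 and not in siBard1 (*Emilin1*, *Has2*, *Hspg2*, *Pcolce*, *Serpinh1* and *Spp1*), and 7 passed as higher in siWdr5 and in neither of the others (*Comp*, *Dcn*, *Fbln1*, *Fbn1*, *Lum*, *Tgfbi* and *Thbs2*). In the direct comparisons all 7 were higher in siWdr5 than in siBard1, and all but *Comp* (-0.73, adjusted p = 0.189) and *Fbln1* (-0.21, adjusted p = 0.204) were lower in siBrca1 than in siWdr5.

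**Figure D2:**
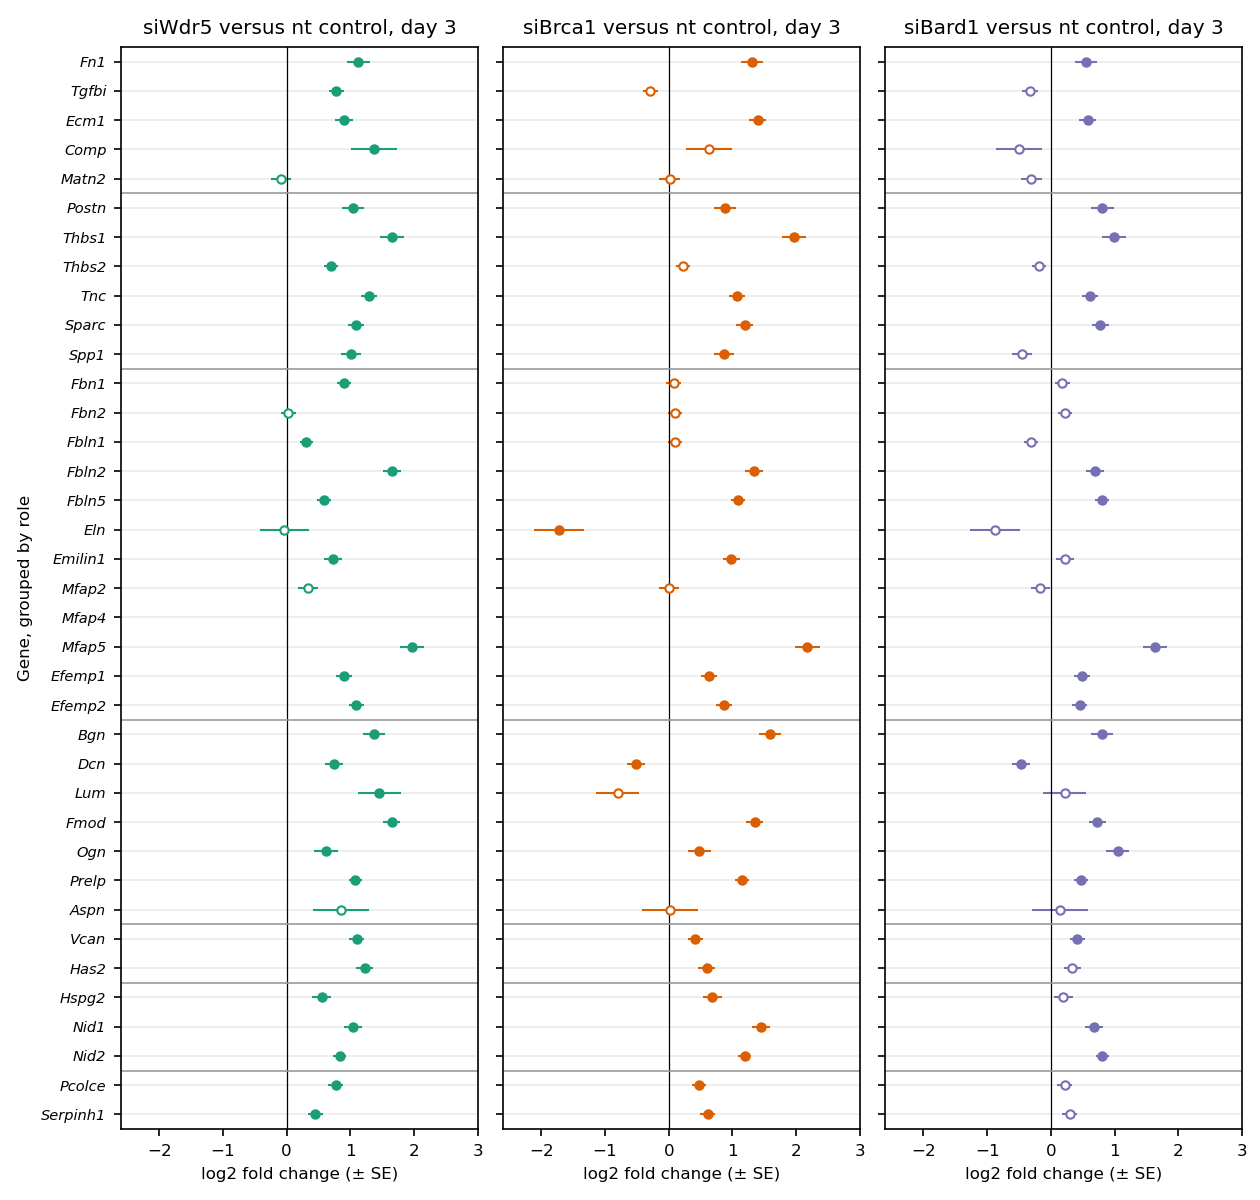
Log2 fold change of each gene against the nt control at day 3 (horizontal axis, with its SE as bar) in siWdr5, siBrca1 and siBard1, for 2 libraries per group. Filled points passed at adjusted p < 0.05 and open points did not, and *Mfap4* was not tested. All points of siWdr5 but those of *Matn2* and *Eln* lie right of 0, and in siBrca1 those of *Eln*, *Lum*, *Dcn* and *Tgfbi* lie left of it.

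Markers of other cells and states moved with these groups, and their part in the results was not tested. The 4 smooth muscle markers, which myofibroblasts share, summed to 850 to 1050 CPM in the nt control at day 3, to 3035 to 3166 CPM in siWdr5, 4447 to 5886 CPM in siBrca1 and 2330 to 2960 CPM in siBard1. The 7 fibroblast markers summed to 2594 to 2686 CPM in the nt control and to 3004 to 4172 CPM in the knockdowns, while the 6 epithelial markers summed to 44.9 to 67.1 CPM and 20.97 to 45.6 CPM. The 5 proliferation genes summed to 1179 to 1209 CPM in the nt control and to 368 to 1018 CPM in the knockdowns. Endothelial markers stayed at or below 3.28 CPM in sum in every library (1 of 5, *Tie1*, was not in the table). Of the 5 macrophage markers, *Ptprc* and *Aif1* were not in the table, and the others summed to 5.88 to 6.28 CPM in the nt control, 10.1 to 11.03 CPM in siWdr5, 11.7 to 14.1 CPM in siBrca1 and 7.06 to 8.33 CPM in siBard1 at day 3. Ribosomal RNA rows took 0.350% and 0.162% of reads in the nt control at day 3, more than in any knockdown library of that day.

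The 100 bases before the RefSeq start site (GRCm38.p6, 5′ to 3′) are shown for 4 of the 18 genes higher in all 3 knockdowns, chosen because they hold different core promoter letters. *Postn* holds a TATA box, *Ecm1* a TATA box and a GC box, *Bgn* GC boxes and *Fmod* neither. Capitals mark TATAAA and GGGCGG or its reverse complement.
Postn, chr3:54361007-54361106, + strand: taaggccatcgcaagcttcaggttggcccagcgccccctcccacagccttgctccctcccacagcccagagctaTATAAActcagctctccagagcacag
Ecm1, chr3:95739570-95739669, - strand: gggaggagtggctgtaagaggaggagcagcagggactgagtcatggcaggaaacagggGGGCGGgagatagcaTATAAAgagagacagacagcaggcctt
Bgn, chrX:73483501-73483600, + strand: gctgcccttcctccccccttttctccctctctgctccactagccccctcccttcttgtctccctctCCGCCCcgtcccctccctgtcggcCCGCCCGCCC
Fmod, chr1:134037154-134037253, + strand: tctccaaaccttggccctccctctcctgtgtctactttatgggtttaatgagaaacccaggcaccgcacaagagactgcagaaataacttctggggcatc
Of the 37 genes 25 had a RefSeq promoter entry. Within 250 bases before the start and on both strands, TATAAA was found in 7 of these 25 genes (28%), against 7.83% of the 10195 tested genes and 14.3% of all 27025 genes with an entry. The 7 were *Aspn*, *Ecm1*, *Ogn*, *Postn*, *Spp1*, *Thbs2* and *Tnc*. GGGCGG was found in 16 (64%), against 65.1% of the tested genes and 35.4% of all genes. The AP-1 letters TGANTCA were found in 2 (8%, *Ecm1* and *Efemp1*), against 5.51% and 7.82%, and the TEAD letters GGAATG in 3 (12%, *Mfap2*, *Nid1* and *Ogn*), against 12.9% and 14.4%. These are matches of letters and not sites of binding.

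Among the adhesive glycoproteins, fibronectin (*Fn1*, chr1:71585520-71653200) forms the fibrils to which integrins attach. At day 3 *Fn1* stood at 2022 and 2201 CPM in the nt control, 4593 and 4618 in siWdr5, 4390 and 6181 in siBrca1, and 3265 and 2931 in siBard1. Every knockdown library was above both controls. The log2 fold changes were 1.13 in siWdr5, 1.30 in siBrca1 and 0.55 in siBard1 (SE 0.17, adjusted p = 0.000339, 6.28e-05 and 0.0491). At day 6 its level was 972 and 950.4 CPM in the nt control, 1813 and 2005 in siWdr5, 1617 and 1368 in siBrca1, and 1442 and 1248 in siBard1, again with no overlap between any knockdown and the control, and the change passed in siWdr5 with 0.99 (SE 0.17, adjusted p = 0.00649). *Ecm1* encodes a secreted glycoprotein that binds perlecan and fibulins. It stood at 132 and 159 CPM in the nt control, 273 and 268 in siWdr5, 360.2 and 405 in siBrca1, and 249 and 189 in siBard1 at day 3, highest in siBrca1, with log2 fold changes of 0.90 in siWdr5, 1.40 in siBrca1 and 0.58 in siBard1 (SE 0.13, adjusted p = 0.000262, 6.19e-06 and 0.0127). At day 6 *Ecm1* was at 231 and 193 CPM in the nt control, 317 and 436 in siWdr5, 341 and 227 in siBrca1, and 299 and 309 in siBard1. Only the siWdr5 difference passed there (0.82, SE 0.21, adjusted p = 0.0207), and the siBrca1 libraries overlapped the control.

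*Tgfbi* encodes a collagen-binding protein that was named for its induction by TGF-β. At day 3 it was at 109 and 112 CPM in the nt control, 181 and 199 in siWdr5, 99.6 and 82.2 in siBrca1, and 96.1 and 80.9 in siBard1. The 2 siWdr5 libraries stood above all other libraries of that day, and the siBrca1 and siBard1 libraries lay below the control. Only the rise in siWdr5 passed, with log2 fold changes of 0.78 in siWdr5, -0.29 in siBrca1 and -0.33 in siBard1 (SE 0.12, adjusted p = 0.000341, 0.0644 and 0.0854). By day 6 the order had changed, to 91.9 and 79.6 CPM in the nt control, 160.2 and 189.9 in siWdr5, 114 and 141 in siBrca1, and 177 and 198 in siBard1. *Tgfbi* then rose in siWdr5 (1.03, SE 0.15, adjusted p = 0.00362) and in siBard1 (1.13, SE 0.15, adjusted p = 0.0252), and all 6 knockdown libraries were above both controls. The siBard1 call was lost without either nt control library and without siBard1 replicate 1 (adjusted p = 0.0538 to 0.402). *Comp*, a pentameric cartilage and tendon glycoprotein, was near the limit of detection, with 5 to 105 reads per library. Its level at day 3 was 1.26 and 0.707 CPM in the nt control, 2.13 and 2.79 in siWdr5, 1.39 and 1.54 in siBrca1, and 0.627 and 0.708 in siBard1, and siWdr5 was the only knockdown to pass (1.37, SE 0.36, adjusted p = 0.0105). At day 6 it stood at 0.536 and 1.09 CPM in the nt control, 2.62 and 4.14 in siWdr5, 1.44 and 2.83 in siBrca1, and 0.888 and 1.36 in siBard1, again higher in siWdr5 (2.11, SE 0.47, adjusted p = 0.0135). The siBard1 libraries overlapped the control on both days. *Matn2*, a filament-forming matrilin, ranged from 26.99 to 71.2 CPM over the 16 libraries and passed in no knockdown on either day, with log2 fold changes of -0.37 to 0.01.

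Of the 6 matricellular genes, all passed as higher in siWdr5 at day 3, 5 in siBrca1 and 4 in siBard1. Of all tested genes, 18.3%, 25.4% and 8.67% were higher in these comparisons. Thrombospondin 1 (*Thbs1*, chr2:118111876-118127133) binds cells and can release TGF-β from its latent complex. At day 3 it stood at 2684 and 3088 CPM in the nt control, 8900 and 9163 in siWdr5, 10283 and 12273 in siBrca1, and 6381 and 5105 in siBard1, and the groups did not overlap. The siBrca1 libraries were highest, and the log2 fold changes were 1.65 in siWdr5, 1.96 in siBrca1 and 0.99 in siBard1 (SE 0.19, adjusted p = 3.69e-05, 6.19e-06 and 0.0048). At day 6 *Thbs1* was at 1040 and 1012 CPM in the nt control, 3127 and 3711 in siWdr5, 1655 and 1988 in siBrca1, and 2263 and 979.9 in siBard1. It remained higher in siWdr5 (1.73, SE 0.32, adjusted p = 0.00792), the siBrca1 libraries were above the control without passing, and 1 siBard1 library was below both controls. Its relative *Thbs2* ranged from 393 to 765 CPM at day 3 and from 772 to 1333 CPM at day 6, and passed in siWdr5 at day 3 (0.70, SE 0.11, adjusted p = 0.000305) but in no other comparison with the nt control.

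Tenascin C (*Tnc*), a large glycoprotein of wounds and embryonic mesenchyme that weakens adhesion to fibronectin, was at 912 and 966 CPM in the nt control, 2237 and 2362 in siWdr5, 2013 and 1942 in siBrca1, and 1517 and 1352 in siBard1 at day 3. All 6 knockdown libraries exceeded the controls, with log2 fold changes of 1.29 in siWdr5, 1.07 in siBrca1 and 0.61 in siBard1 (SE 0.12, adjusted p = 1.01e-05, 2.23e-05 and 0.00685). By day 6 the level was 794 and 866 CPM in the nt control, 1641 and 1843 in siWdr5, 809 and 971 in siBrca1, and 1118 and 739 in siBard1. The siWdr5 libraries were then clear of the rest (1.07, SE 0.21, adjusted p = 0.00871), while both other knockdowns overlapped the control. *Sparc* encodes osteonectin, which binds collagen during fibril assembly. Its level at day 3 was 727 and 832 CPM in the nt control, 1575 and 1738 in siWdr5, 1687 and 1866 in siBrca1, and 1407 and 1262 in siBard1, with no overlap between knockdowns and control. Log2 fold changes were 1.09 in siWdr5, 1.19 in siBrca1 and 0.78 in siBard1 (SE 0.13, adjusted p = 4.81e-05, 1.43e-05 and 0.00206). At day 6 *Sparc* was at 453 and 390.1 CPM in the nt control, 954 and 1328 in siWdr5, 601 and 666 in siBrca1, and 764 and 524 in siBard1, and the siWdr5 change of 1.42 (SE 0.21, adjusted p = 0.00362) was the only one to pass.

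Periostin and osteopontin were higher in siWdr5 at day 3 and lower at day 6. Periostin (*Postn*) binds fibronectin and collagen in tissues under load. At day 3 *Postn* was at 15.4 and 19.3 CPM in the nt control, 30.8 and 40.8 in siWdr5, 27.6 and 36.4 in siBrca1, and 33.6 and 27.2 in siBard1, higher in all knockdown libraries than in the control, with log2 fold changes of 1.04 in siWdr5, 0.88 in siBrca1 and 0.81 in siBard1 (SE 0.18, adjusted p = 0.000718, 0.00119 and 0.0102). Its day 6 level was 54.1 and 52.05 CPM in the nt control, 24.3 and 24.8 in siWdr5, 36.2 and 47.3 in siBrca1, and 69.9 and 137 in siBard1. Both siWdr5 libraries were now below all others, and *Postn* fell by 1.11 on the log2 scale against the nt control (SE 0.25, adjusted p = 0.0145). The siBard1 libraries lay above all others of that day but did not pass (0.88, SE 0.25, adjusted p = 0.207). Osteopontin (*Spp1*) is a phosphorylated integrin ligand. It was at 161 and 145 CPM in the nt control, 288 and 328 in siWdr5, 227 and 343 in siBrca1, and 119 and 105 in siBard1 at day 3. The siWdr5 and siBrca1 libraries were above the control and the siBard1 libraries below it, with log2 fold changes of 1.01 in siWdr5, 0.87 in siBrca1 and -0.45 in siBard1 (SE 0.16, adjusted p = 0.000355, 0.000525 and 0.0666). At day 6 all groups were several times higher, at 1631 and 1311 CPM in the nt control, 911 and 948 in siWdr5, 1372 and 1092 in siBrca1, and 655 and 929 in siBard1. *Spp1* was then lower in siWdr5 than in the nt control (-0.65, SE 0.21, adjusted p = 0.0475), and the siBard1 libraries were also below the control without passing (-0.91, SE 0.21, adjusted p = 0.129). An unrelated transcript model on the same strand overlaps 18.8% of the *Spp1* exon bases, and how such reads were counted is not given in the sources used here. The day 6 calls of *Postn* and *Spp1* in siWdr5 were each lost without any 1 of the 4 libraries compared (adjusted p = 0.0562 to 0.116 and 0.1 to 0.255).

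Of the 11 tested elastic fibre and microfibril genes, 8 rose in siWdr5, 6 in siBrca1 and 5 in siBard1 at day 3. The shares over all tested genes were 18.3%, 25.4% and 8.67%. The fibulins *Fbln2* and *Fbln5*, the fibulin-like *Efemp1* and *Efemp2* and the microfibril-associated *Mfap5* rose in all 3 knockdowns at day 3, whereas fibrillin 2 (*Fbn2*), *Mfap2* and elastin itself (*Eln*) rose in none. *Mfap5*, which binds fibrillin microfibrils, had the largest fold change of all 36 genes in siBrca1, in siWdr5 and in siBard1. At day 3 it was at 2.91 and 4.07 CPM in the nt control, 12.8 and 14.1 in siWdr5, 14.00 and 17.3 in siBrca1, and 10.7 and 10.7 in siBard1. All knockdown libraries lay far above both controls. The log2 fold changes were 1.97 in siWdr5, 2.18 in siBrca1 and 1.64 in siBard1 (SE 0.19, adjusted p = 1.12e-05, 3.5e-06 and 0.000239). At day 6 *Mfap5* was at 4.22 and 2.05 CPM in the nt control, 6.27 and 6.40 in siWdr5, 3.52 and 3.58 in siBrca1, and 3.59 and 3.53 in siBard1. The 2 control libraries then differed by more than the siBrca1 or siBard1 libraries, which lay between them, and siWdr5 stayed above (1.11, SE 0.31, adjusted p = 0.0312).

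*Fbln2* links fibronectin, fibrillin and basement membrane proteins. It was at 384 and 469 CPM in the nt control, 1302 and 1375 in siWdr5, 999.8 and 1155 in siBrca1, and 769.9 and 607 in siBard1 at day 3, with siWdr5 highest and no overlap between any of the 4 groups. Log2 fold changes were 1.66 in siWdr5, 1.34 in siBrca1 and 0.69 in siBard1 (SE 0.14, adjusted p = 4.33e-06, 1.16e-05 and 0.00696). At day 6 *Fbln2* was at 169 and 163 CPM in the nt control, 633 and 847 in siWdr5, 290.2 and 297 in siBrca1, and 397 and 213 in siBard1, all knockdown libraries again above the controls, and it passed in siWdr5 (2.14, SE 0.25, adjusted p = 0.0021). *Fbln5* is needed for elastic fibre assembly. Its day 3 level was 50.8 and 58.3 CPM in the nt control, 78.9 and 83.9 in siWdr5, 109 and 122 in siBrca1, and 95.97 and 92.99 in siBard1, here with siBrca1 highest and siWdr5 lowest of the knockdowns. The log2 fold changes were 0.58 in siWdr5, 1.08 in siBrca1 and 0.80 in siBard1 (SE 0.11, adjusted p = 0.00134, 8.52e-06 and 0.000595). At day 6 the level was lower in all groups, at 15.3 and 14.2 CPM in the nt control, 32.8 and 52.4 in siWdr5, 21.7 and 28.8 in siBrca1, and 39.7 and 23.9 in siBard1, and it was still higher in siWdr5 than in the control (1.49, SE 0.27, adjusted p = 0.0068).

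*Efemp1* (fibulin 3) was at 126 and 137 CPM in the nt control, 219 and 276 in siWdr5, 189.6 and 219 in siBrca1, and 185 and 184 in siBard1 at day 3. Its log2 fold changes were 0.90 in siWdr5, 0.63 in siBrca1 and 0.49 in siBard1 (SE 0.12, adjusted p = 0.000125, 0.000817 and 0.0184), and no knockdown library overlapped the control. In the day 6 libraries it was at 142 and 121 CPM in the nt control, 205 and 315 in siWdr5, 165 and 234 in siBrca1, and 189 and 227 in siBard1, higher in siWdr5 (0.96, SE 0.22, adjusted p = 0.0145). *Efemp2* (fibulin 4), which brings lysyl oxidase to elastin, was at 158 and 174 CPM in the nt control, 344 and 364 in siWdr5, 295 and 310.3 in siBrca1, and 257 and 199 in siBard1 at day 3. Here too all knockdown libraries were above the controls, with log2 fold changes of 1.09 in siWdr5, 0.87 in siBrca1 and 0.45 in siBard1 (SE 0.12, adjusted p = 2.9e-05, 8.73e-05 and 0.0264). At day 6 *Efemp2* was at 167 and 131 CPM in the nt control, 337 and 435 in siWdr5, 207 and 223 in siBrca1, and 262 and 209 in siBard1, and siWdr5 passed (1.37, SE 0.17, adjusted p = 0.00281).

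Fibrillin 1 (*Fbn1*), the main microfibril protein, passed against the nt control in siWdr5 and in neither of the other knockdowns. At day 3 it stood at 639 and 632 CPM in the nt control, 1153 and 1223 in siWdr5, 723 and 621 in siBrca1, and 739 and 700.0 in siBard1. The siWdr5 libraries were far above all others, which lay close together, and the log2 fold changes were 0.90 in siWdr5, 0.08 in siBrca1 and 0.18 in siBard1 (SE 0.11, adjusted p = 7.96e-05, 0.61 and 0.309). At day 6 *Fbn1* was at 256 and 257 CPM in the nt control, 553 and 709 in siWdr5, 313 and 341 in siBrca1, and 402 and 399.9 in siBard1. The siWdr5 change was 1.29 (SE 0.14, adjusted p = 0.0021), and this was the 1 siWdr5 call of day 6 among the 36 genes that held with every library left out and every setting. An antisense model covers 20.1% of its exon bases. Fibrillin 2 (*Fbn2*), the fibrillin of embryonic tissue, was at 286 and 251 CPM in the nt control, 269 and 277 in siWdr5, 302 and 271 in siBrca1, and 335 and 289.6 in siBard1 at day 3, and no knockdown passed. At day 6 *Fbn2* was at 169.8 and 146 CPM in the nt control, 221 and 285 in siWdr5, 218 and 235 in siBrca1, and 359 and 468 in siBard1, with all 6 knockdown libraries above the controls and siBard1 highest. It passed in siBard1 (1.38, SE 0.17, adjusted p = 0.0252) and in siWdr5 (0.67, SE 0.17, adjusted p = 0.0201). The siBard1 call was lost without either nt control library (adjusted p = 0.107 to 0.402).

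Elastin (*Eln*), the rubber-like core of the fibre, was scarce, with 3 to 40 reads in all libraries but 1. At day 3 it was at 1.26 and 1.51 CPM in the nt control, 1.13 and 1.60 in siWdr5, 0.505 and 0.347 in siBrca1, and 0.697 and 0.812 in siBard1. Both siBrca1 libraries, with 5 and 3 reads, were the lowest of the day, and *Eln* fell there by 1.72 on the log2 scale (SE 0.39, adjusted p = 0.00267), a call kept in the settings in which it was tested and with each library left out (adjusted p = 0.0011 to 0.0315). *Eln* was too low for the stricter filter (mean log2 CPM 2 or more), and across the settings its change ranged from -2.02 (limma-voom) to -0.74 (1 CPM added). On day 6 its level was 2.30 and 3.33 CPM in the nt control, 1.45 and 1.51 in siWdr5, 3.17 and 1.48 in siBrca1, and 2.39 and 10.5 in siBard1. The siBard1 replicate 2 library held 221 *Eln* reads, against 19 to 40 in the others, and no comparison passed. *Emilin1*, an elastic fibre glycoprotein that restrains TGF-β, ranged from 57.7 to 142 CPM and passed as higher at day 3 in siWdr5 (0.72, SE 0.14, adjusted p = 0.00153) and siBrca1 (0.98, SE 0.14, adjusted p = 9.68e-05). *Fbln1* ranged from 39.6 to 117 CPM and passed in siWdr5 at day 3 by a small margin (0.31, SE 0.11, adjusted p = 0.04), a call lost without any 1 of the 4 libraries compared. *Mfap2* ranged from 12.1 to 24.3 CPM and passed in no knockdown. *Mfap4* had 145 reads in all libraries together.

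The 7 small leucine-rich proteoglycans went in different directions in siBrca1. Biglycan (*Bgn*), which binds collagen and is shed as a danger signal, was at 396 and 483 CPM in the nt control, 1067 and 1191 in siWdr5, 1088 and 1600 in siBrca1, and 841 and 686 in siBard1 at day 3. The knockdown libraries were all above the controls, with log2 fold changes of 1.37 in siWdr5, 1.59 in siBrca1 and 0.80 in siBard1 (SE 0.17, adjusted p = 7.12e-05, 1.28e-05 and 0.00881). At day 6 it stood at 376 and 351 CPM in the nt control, 637 and 777 in siWdr5, 472 and 505 in siBrca1, and 549 and 338 in siBard1, and siWdr5 passed (0.95, SE 0.21, adjusted p = 0.0124). Decorin (*Dcn*), the closest relative of biglycan and a binder of collagen and TGF-β, rose with it at day 3 in siWdr5 only. At day 3 *Dcn* was at 31.7 and 30.4 CPM in the nt control, 44.7 and 60.8 in siWdr5, 22.2 and 21.2 in siBrca1, and 23.5 and 21.5 in siBard1. The siWdr5 libraries lay above the control, and all siBrca1 and siBard1 libraries below it. Its log2 fold changes were 0.75 in siWdr5, -0.52 in siBrca1 and -0.46 in siBard1 (SE 0.14, adjusted p = 0.00153, 0.0094 and 0.046). The siWdr5 call held under every setting, the siBrca1 call was lost without nt control replicate 1, and the siBard1 call was lost without any 1 of the 4 libraries compared (adjusted p = 0.239 at most) and under 3 other settings. At day 6 its level was 301 and 291 CPM in the nt control, 163 and 262 in siWdr5, 143 and 161 in siBrca1, and 270.2 and 271 in siBard1. All 6 knockdown libraries were below both controls and none of the differences passed (-0.52, -0.96 and -0.13 in siWdr5, siBrca1 and siBard1).

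Lumican (*Lum*), which spaces collagen fibrils, lies next to *Dcn* on chromosome 10 and was at 12.9 and 7.55 CPM in the nt control, 24.6 and 29.5 in siWdr5, 7.59 and 4.22 in siBrca1, and 16.8 and 7.83 in siBard1 at day 3. Only the siWdr5 libraries were clear of the control, with log2 fold changes of 1.45 in siWdr5, -0.80 in siBrca1 and 0.22 in siBard1 (SE 0.34, adjusted p = 0.00499, 0.0657 and 0.708). At day 6 *Lum* was at 192 and 168 CPM in the nt control, 108 and 142 in siWdr5, 91.8 and 202 in siBrca1, and 146 and 207 in siBard1, and no knockdown passed. Fibromodulin (*Fmod*) and *Prelp*, both collagen binders, lie beside each other on chromosome 1. *Fmod* was at 36.9 and 48.1 CPM in the nt control, 129 and 135 in siWdr5, 104 and 111 in siBrca1, and 76.2 and 64.2 in siBard1 at day 3, in the order siWdr5, siBrca1, siBard1 and control without overlap. Log2 fold changes were 1.65 in siWdr5, 1.35 in siBrca1 and 0.73 in siBard1 (SE 0.13, adjusted p = 3.18e-06, 6.54e-06 and 0.0032). By day 6 the level was 15.7 and 9.78 CPM in the nt control, 53.5 and 75.1 in siWdr5, 20.1 and 35.5 in siBrca1, and 50.5 and 13.5 in siBard1, with a siWdr5 change of 2.36 (SE 0.50, adjusted p = 0.0119). The siBard1 libraries were far apart and overlapped the control.

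*Prelp* stood at 60.4 and 71.5 CPM in the nt control, 139.9 and 138 in siWdr5, 146 and 145 in siBrca1, and 89.2 and 93.1 in siBard1 at day 3, with siWdr5 and siBrca1 nearly level. Its log2 fold changes were 1.08 in siWdr5, 1.15 in siBrca1 and 0.47 in siBard1 (SE 0.11, adjusted p = 1.18e-05, 5e-06 and 0.0111). Its day 6 level was 28.9 and 24.1 CPM in the nt control, 95.7 and 166 in siWdr5, 45.9 and 56.4 in siBrca1, and 101 and 40.6 in siBard1, above the control in every knockdown library, and siWdr5 passed (2.26, SE 0.36, adjusted p = 0.00482). An antisense model overlaps 9.68% of the *Prelp* exon bases. Osteoglycin (*Ogn*) was the 1 gene of the 18 with its highest mean in siBard1, at 14.7 and 12.6 CPM in the nt control, 17.99 and 24.3 in siWdr5, 17.4 and 20.8 in siBrca1, and 24.1 and 32.9 in siBard1. A siBard1 library overlapped the siWdr5 range, and all knockdown libraries were above the controls. The log2 fold changes were 0.62 in siWdr5, 0.48 in siBrca1 and 1.05 in siBard1 (SE 0.18, adjusted p = 0.0186, 0.0445 and 0.00277). At day 6 *Ogn* was at 4.22 and 3.41 CPM in the nt control, 4.41 and 13.1 in siWdr5, 3.43 and 15.6 in siBrca1, and 4.42 and 4.14 in siBard1, with replicates of siWdr5 and siBrca1 that differed several times, and nothing passed. Asporin (*Aspn*) had 7 to 33 reads per library (0.598 to 2.36 CPM) and passed nowhere.

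The genes for leucine-rich proteoglycans lie in clusters, and their neighbours that are not among the 37 genes were examined beside them. On chromosome 10 *Dcn*, *Lum*, *Kera* and *Epyc* lie on the same strand within 203 kb, and *Kera*, a keratan sulfate proteoglycan of the cornea, was at 0.136 to 0.268 CPM in the libraries of day 3 and at 0.535 CPM or more in those of day 6, too low to be tested. *Epyc* was not in the table. On chromosome 1 *Optc*, *Prelp* and *Fmod* lie within 151 kb. *Optc* was at 1.26 and 1.39 CPM in the nt control at day 3 and rose in siWdr5 (log2 fold change 1.87), siBrca1 (1.85) and siBard1 (1.20), as its neighbours did. On chromosome 13 *Ecm2*, *Aspn*, *Omd* and *Ogn* lie within 120 kb, where *Ecm2* (0.347 to 1.52 CPM) and *Omd* (0.205 to 0.978 CPM) were as scarce as *Aspn*. *Aspn* lies within the span of *Cenpp*, a gene on the opposite strand.

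**Figure D3:**
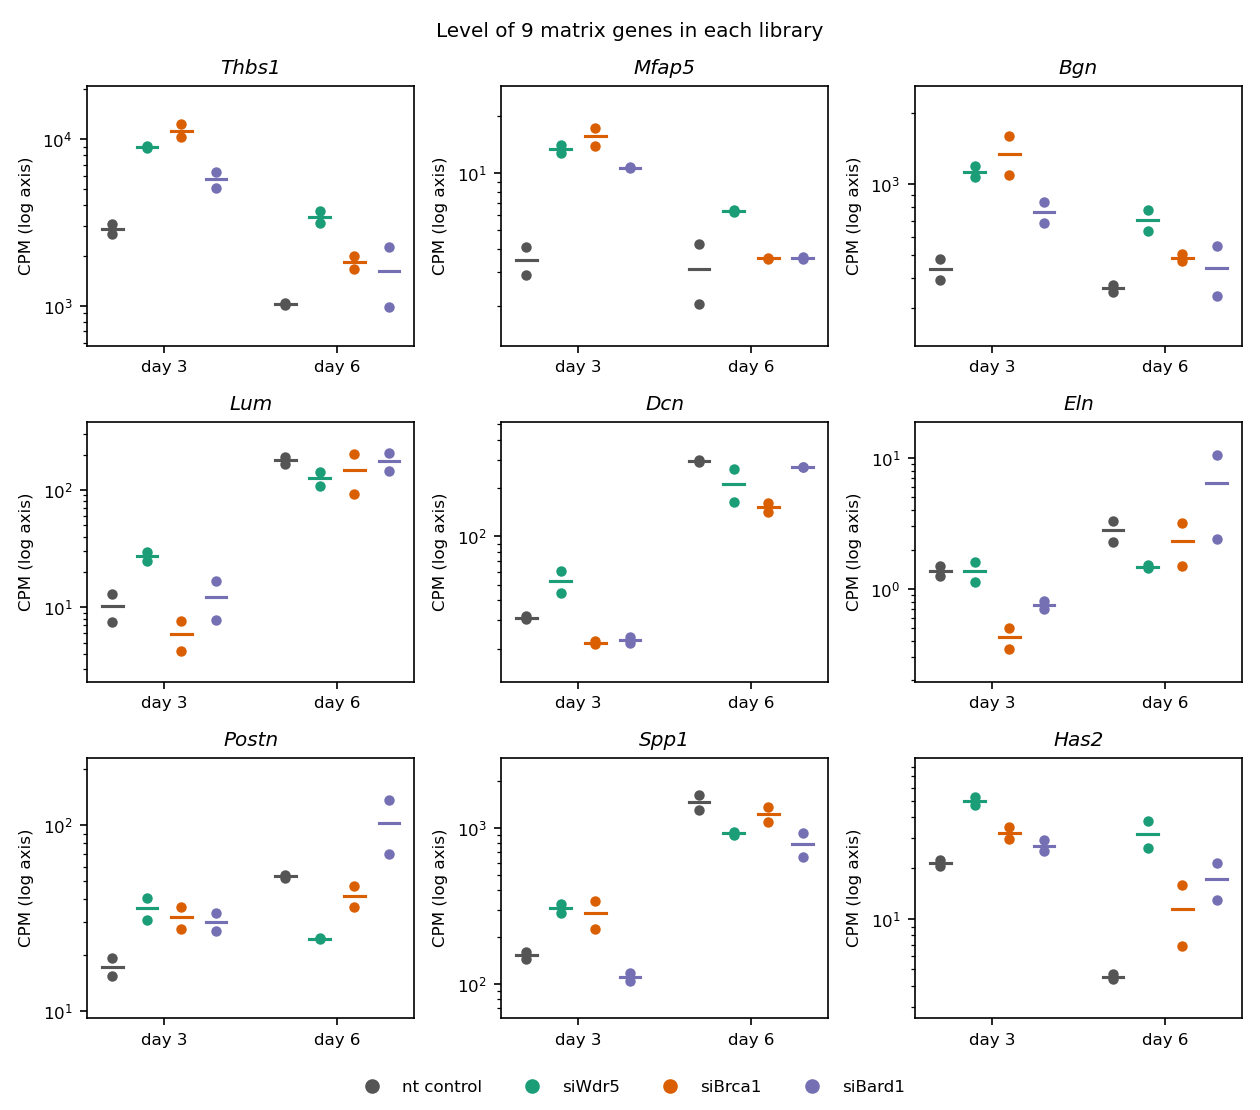
CPM of 9 of the genes on log axes (1 panel each, with its own scale) in the 4 groups of day 3 and of day 6, with 1 point per library and a bar at the mean of the 2 libraries. *Thbs1*, *Mfap5* and *Bgn* are higher in every knockdown library of day 3 than in the controls of that day, where *Dcn* is lower in siBrca1 and siBard1 and higher in siWdr5, and *Has2* falls to 4.38 and 4.68 CPM in the nt control of day 6.

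Versican (*Vcan*) is the large proteoglycan that binds hyaluronan, and hyaluronan synthase 2 (*Has2*) makes that polymer. *Vcan* was at 336 and 307 CPM in the nt control, 636 and 743 in siWdr5, 404 and 457 in siBrca1, and 404 and 454 in siBard1 at day 3, highest in siWdr5. Log2 fold changes were 1.10 in siWdr5, 0.42 in siBrca1 and 0.41 in siBard1 (SE 0.12, adjusted p = 2.37e-05, 0.0104 and 0.0343). In the day 6 libraries it was at 249 and 248 CPM in the nt control, 509 and 652 in siWdr5, 314 and 514 in siBrca1, and 470.0 and 437 in siBard1, and siWdr5 passed (1.21, SE 0.21, adjusted p = 0.00619). *Has2* was at 20.6 and 22.3 CPM in the nt control, 47.7 and 52.8 in siWdr5, 29.7 and 35.3 in siBrca1, and 25.2 and 29.2 in siBard1 at day 3, with all knockdown libraries above the controls and log2 fold changes of 1.22 in siWdr5, 0.59 in siBrca1 and 0.34 in siBard1 (SE 0.13, adjusted p = 2.39e-05, 0.00239 and 0.101). At day 6 the control fell to the lowest *Has2* levels of the study, with 4.38 and 4.68 CPM in the nt control, 26.2 and 38.00 in siWdr5, 6.90 and 15.98 in siBrca1, and 21.4 and 12.9 in siBard1. The siWdr5 change of 2.80 (SE 0.36, adjusted p = 0.00341) was the largest of any of the 36 genes in a knockdown at day 6. The siBard1 change of 1.87 (SE 0.36, adjusted p = 0.0934) did not pass.

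The 3 basement membrane genes rose in siWdr5 and siBrca1 at day 3, where 18.3% and 25.4% of all tested genes were higher. Perlecan (*Hspg2*), the heparan sulfate proteoglycan of basement membranes, was at 2193 and 2347 CPM in the nt control, 3504 and 3161 in siWdr5, 3487 and 3797 in siBrca1, and 2823 and 2398 in siBard1 at day 3. The siBard1 libraries lay above the controls without passing, and the log2 fold changes were 0.55 in siWdr5, 0.68 in siBrca1 and 0.20 in siBard1 (SE 0.15, adjusted p = 0.0111, 0.00197 and 0.391). On day 6 its level was 1286 and 1302 CPM in the nt control, 2406 and 2818 in siWdr5, 1653 and 1476 in siBrca1, and 1756 and 1615 in siBard1, higher in siWdr5 (1.01, SE 0.18, adjusted p = 0.0068). The nidogens bridge laminin and collagen IV. *Nid1* was at 513 and 604 CPM in the nt control, 1102 and 1186 in siWdr5, 1327 and 1736 in siBrca1, and 950.4 and 840.2 in siBard1 at day 3, highest in siBrca1, with log2 fold changes of 1.04 in siWdr5, 1.45 in siBrca1 and 0.68 in siBard1 (SE 0.14, adjusted p = 0.000148, 7.47e-06 and 0.00811). At day 6 *Nid1* was at 667 and 631 CPM in the nt control, 1026 and 1047 in siWdr5, 871 and 779 in siBrca1, and 786 and 801 in siBard1, with a siWdr5 change of 0.68 (SE 0.14, adjusted p = 0.0104). *Nid2* was at 169 and 179 CPM in the nt control, 303 and 316 in siWdr5, 385 and 408 in siBrca1, and 322 and 287 in siBard1 at day 3, again highest in siBrca1. Its log2 fold changes were 0.83 in siWdr5, 1.19 in siBrca1 and 0.81 in siBard1 (SE 0.10, adjusted p = 6.34e-05, 3.06e-06 and 0.00039). At day 6 *Nid2* was at 51.7 and 53.96 CPM in the nt control, 129 and 181 in siWdr5, 63.3 and 78.02 in siBrca1, and 88.6 and 60.3 in siBard1, with 1.53 (SE 0.20, adjusted p = 0.00362) in siWdr5. An antisense gene, *Rtraf*, overlaps 8.45% of its exon bases.

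For collagen processing, *Pcolce* encodes an enhancer of the protease that trims procollagen and *Serpinh1* the collagen chaperone HSP47. *Pcolce* was at 281 and 303 CPM in the nt control, 488 and 507 in siWdr5, 438 and 376 in siBrca1, and 365 and 317 in siBard1 at day 3, above the controls in each knockdown, with log2 fold changes of 0.77 in siWdr5, 0.47 in siBrca1 and 0.22 in siBard1 (SE 0.11, adjusted p = 0.000252, 0.00387 and 0.21). At day 6 it stood at 274 and 222 CPM in the nt control, 495 and 694 in siWdr5, 318 and 344 in siBrca1, and 434 and 368 in siBard1, and siWdr5 passed (1.25, SE 0.18, adjusted p = 0.00362). *Serpinh1* was at 833 and 845 CPM in the nt control, 1133 and 1157 in siWdr5, 1276 and 1289 in siBrca1, and 1116 and 947 in siBard1 at day 3. Its range over the groups was narrow, and the log2 fold changes were 0.45 in siWdr5, 0.61 in siBrca1 and 0.29 in siBard1 (SE 0.12, adjusted p = 0.0103, 0.000851 and 0.109). By day 6 the level was 761 and 640.1 CPM in the nt control, 898 and 1066 in siWdr5, 731 and 666 in siBrca1, and 904 and 706 in siBard1, where no knockdown passed.

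The knockdowns were also compared with each other at day 3. Between siBrca1 and siWdr5, 3 genes were higher in siBrca1 and 8 lower, where 10.2% of all genes were higher and 5.47% lower (1279 higher and 1076 lower, in place of 1429 and 768, when each library was centred on its median gene). *Lum* differed most, at -2.25 (SE 0.34, adjusted p = 0.000808), followed by *Eln* (-1.68), *Dcn* (-1.26), *Tgfbi* (-1.07) and *Fbn1* (-0.83), all lower in siBrca1. *Vcan*, *Has2* and *Thbs2* were also lower. The 3 genes higher in siBrca1 were *Ecm1* (0.50), *Fbln5* (0.50) and *Nid2* (0.36). For *Thbs1*, *Fn1*, *Bgn* and *Mfap5* no difference between these knockdowns passed, with 95% intervals of -0.09 to 0.72, -0.20 to 0.55, -0.14 to 0.59 and -0.20 to 0.62. Without siWdr5 replicate 2, the 4 calls of *Dcn*, *Fbn1*, *Lum* and *Tgfbi* remained, without siWdr5 replicate 1 there were 6 calls, and without siBrca1 replicate 1 there were 17.

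Against siBard1, both other knockdowns had higher levels of many of the genes. In siBrca1 18 were higher and 2 lower (*Lum* and *Ogn*), where 13.1% of all genes were higher and 8.33% lower. Among the genes higher in siBrca1, the largest differences were those of *Spp1* (1.32), *Comp* (1.14), *Thbs1* (0.98), *Ecm1* (0.82) and *Bgn* (0.80). Of the lower genes, *Lum* was at 7.59 and 4.22 CPM in siBrca1 against 16.8 and 7.83 CPM in siBard1. *Ogn* was at 17.4 and 20.8 CPM against 24.1 and 32.9 CPM. None of these 20 calls remained without siBard1 replicate 2 (adjusted p = 0.0923 to 0.362), and 10 remained without siBrca1 replicate 2. In siWdr5 18 were higher and none lower, where 4.85% of all genes were higher and 3.78% lower (1103 and 474 genes, in place of 680 and 530, after centring). *Comp* (1.87), *Spp1* (1.46), *Lum* (1.24), *Dcn* (1.21) and *Tgfbi* (1.11) differed most. Of these 18 calls 7 remained without siWdr5 replicate 2, 9 without siWdr5 replicate 1 and 11 without siBard1 replicate 2.

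At day 6, siWdr5 cells still had higher matrix expression. Of the 36 genes 23 were higher and 2 lower (*Postn* and *Spp1*) than in the nt control, where 16.1% of all genes were higher and 5.7% lower (1767 and 1037 genes, in place of 2260 and 800, after centring). The median log2 fold change was 1.00, against 0.08 over all genes. After *Has2* the largest changes were those of *Fmod*, *Prelp*, *Fbln2* and *Comp*. Without siWdr5 replicate 2, the deepest library, the call of *Fbn1* alone remained and the other 24 had adjusted p-values of 0.0503 to 0.188. There were 9 calls without nt control replicate 2 and 15 without nt control replicate 1.

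In siBrca1 none of the 36 genes passed at day 6, nor did any other gene in the main limma fit (0% higher and 0% lower), in a limma-voom fit on reads recovered from the deposited values, or with the replicate number as a block. In a fit of the compared groups alone 1 gene of all passed, and with all 16 libraries in the fit 1 of the 36 did. At an unadjusted p below 0.05 there were 17 of the 36 genes and 1123 of all 14028 (1042 by voom). Their median log2 fold change was 0.40, against 0.03 over all genes, and 26 of the 36 lay above 0. In siBard1 *Fbn2* and *Tgfbi* were higher, as described above, where 0.0784% of all genes were higher (11 genes) and 0% lower. The median was 0.50 against 0.06 over all genes, and 17 of the 36 had an unadjusted p below 0.05, as did 1908 of all 14028. There were 0 calls without either nt control library and 6 without siBard1 replicate 2. At day 6 the smooth muscle markers summed to 139 to 173 CPM in the nt control, 611 to 776 CPM in siWdr5, 430 to 490 CPM in siBrca1, and 631 and 259 CPM in siBard1 replicates 1 and 2, and the epithelial markers to 563 to 762 CPM in the nt control, 362 to 488 CPM in siWdr5, 568 to 600.0 CPM in siBrca1 and 386 to 506 CPM in siBard1. The fibroblast markers summed to 2099.7 to 2403 CPM in the nt control, 3029 to 3534 CPM in siWdr5, 2722 to 2946 CPM in siBrca1 and 3158 to 3294 CPM in siBard1. Their part in the matrix levels was not tested.

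Without any knockdown, the 36 genes changed between day 3 and day 6 in both directions. In the nt control 9 rose and 14 fell, where 19% of all genes rose and 27.1% fell, and the median was -0.25 against -0.07 over all genes. *Lum* rose most, from 12.9 and 7.55 CPM to 192 and 168 CPM, a log2 fold change of 4.19 (SE 0.38, adjusted p = 1.55e-06). *Spp1* rose by 3.26 (SE 0.19, adjusted p = 4.3e-08) and *Dcn* by 3.25 (SE 0.17, adjusted p = 1.86e-08). *Postn* (1.62), *Thbs2* (1.11) and *Fbln1* (1.02) followed, and *Matn2*, *Ecm1* and *Mfap2* rose by less than 1. *Has2* fell most, by 2.25 (SE 0.30, adjusted p = 3.12e-05), then *Fbln5* (-1.88), *Ogn* (-1.85), *Fmod* (-1.77) and *Nid2* (-1.72). The thrombospondins separated, since *Thbs1* fell by 1.49 while *Thbs2* rose, and so did the proteoglycans, since *Fmod*, *Prelp* and *Ogn* fell while *Dcn* and *Lum* rose. Of these 23 calls 18 held under every alternative and left-out library, and 19 to 22 genes passed with 1 of the 4 libraries left out. Over the same days the epithelial markers of the nt control went from 44.9 to 67.1 CPM in sum to 563 to 762 CPM, and the smooth muscle markers from 850 to 1050 CPM to 139 to 173 CPM.

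**Figure D4:**
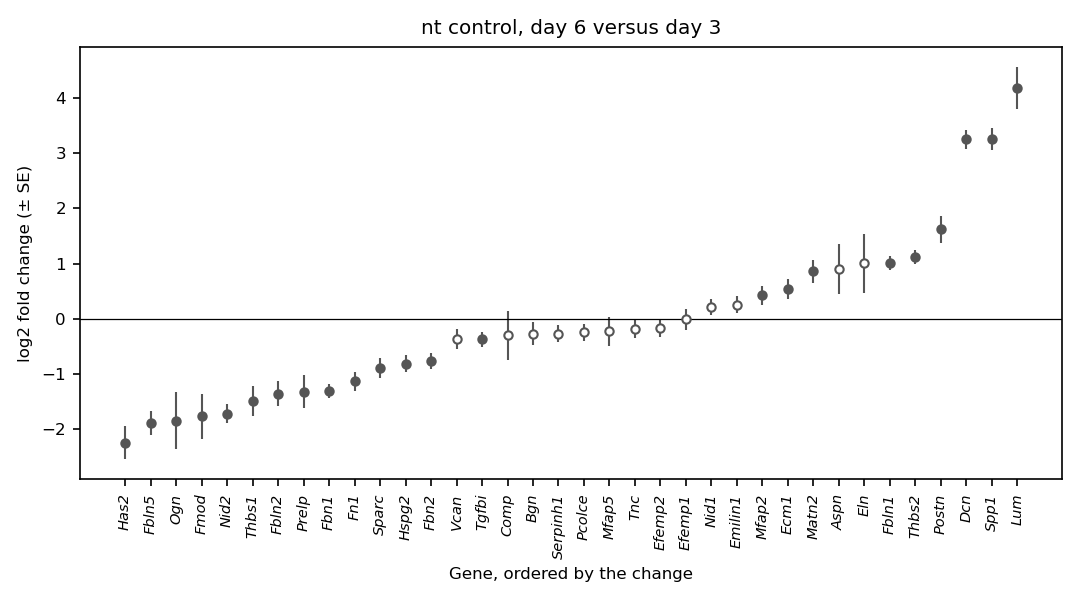
Log2 fold change from day 3 to day 6 in the nt control (vertical axis, with its SE as bar, 2 libraries per day) for the 36 tested genes, in the order of the change. Filled points passed at adjusted p < 0.05. *Has2* lies lowest at -2.25, and *Dcn*, *Spp1* and *Lum* stand apart at the right with 3.25 to 4.19.

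Whether a knockdown effect differed between the days was tested as an interaction, the day 6 change minus the day 3 change. For siWdr5, 4 genes had a lower effect at day 6 (*Postn*, *Lum*, *Spp1* and *Dcn*) and *Has2* a higher one, where 3.4% of all genes were higher and 1.03% lower (109 and 216 genes, in place of 477 and 145, after centring). The median over all genes was 0.12, so that these values stand against a general shift of that size. The 4 lower genes are those that rose most in the nt control over the same days, a comparison that uses the same control libraries. None of these 5 calls remained after leaving out either day 3 nt control library, siWdr5 day 3 replicate 2 or nt control day 6 replicate 1. Without siWdr5 day 3 replicate 1 that of *Postn* remained, and 3 remained without each siWdr5 day 6 library.

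For siBrca1, *Bgn*, *Ecm1*, *Emilin1*, *Mfap5*, *Nid1*, *Nid2*, *Postn*, *Serpinh1*, *Spp1* and *Tnc*, 10 in all, had a lower effect at day 6 and *Tgfbi* a higher one, where 10.3% of all genes were higher and 10.3% lower. *Mfap5* (-1.91, SE 0.38, adjusted p = 0.00435) and *Nid1* (-1.10, SE 0.20, adjusted p = 0.00308) held under every alternative and left-out library. Without nt control day 3 replicate 1 there were 4 calls, without siBrca1 day 3 replicate 2 there were 3, and without nt control day 6 replicate 1 there were 4. For siBard1 only *Tgfbi* passed, at 1.46 (SE 0.20, adjusted p = 0.0148), where 0.0214% of all genes were higher and 0.0285% lower (8 and 27 genes, in place of 3 and 4, after centring). This call was lost without any 1 of 6 of the 8 libraries compared (adjusted p = 0.0551 to 0.0930).

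**Figure D5:**
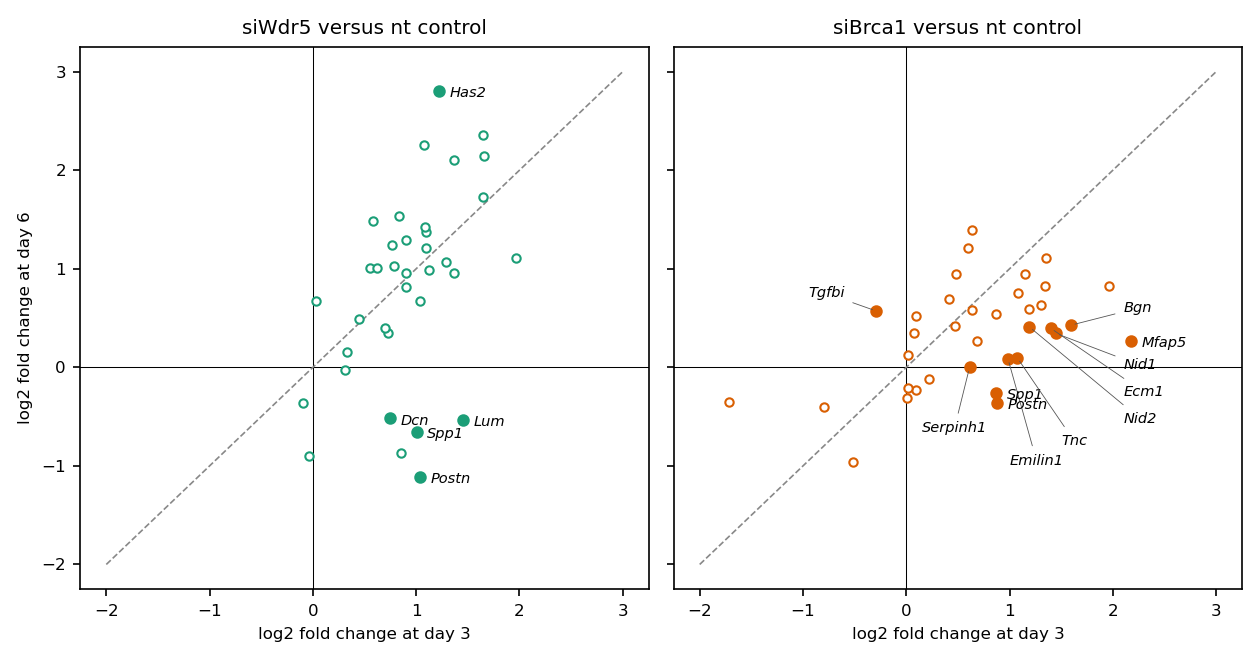
Log2 fold change against the nt control at day 6 (vertical axis) plotted over that at day 3 (horizontal axis) for the 36 tested genes in siWdr5 and siBrca1, with the line of equal change dashed. Filled, named points are genes whose effect differed between the days at adjusted p < 0.05. In siWdr5 *Postn*, *Spp1*, *Dcn* and *Lum* lie right of 0 and below it, and in siBrca1 most points lie below the dashed line.

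Genes of the matrix outside the 37 were counted in lists for comparison. Of all tested genes, 18.3%, 25.4% and 8.67% were higher in siWdr5, siBrca1 and siBard1 at day 3, and 16.8%, 21.8% and 5.87% were lower. The lists are short, so their counts are to be read beside these shares. Of 7 fibrillar collagen genes, 6 were higher in siWdr5 at day 3, 5 in siBrca1 (with *Col5a3* lower) and 2 in siBard1, with medians of 0.81, 0.72 and 0.48. *Col1a1*, a chain of the main fibroblast collagen, stood at 3312 and 4043 CPM in the nt control, 7242 and 7228 in siWdr5, 6523 and 5575 in siBrca1, and 5581 and 4701 in siBard1, with a log2 fold change of 0.98 in siWdr5. It fell by 1.83 on the log2 scale in the nt control from day 3 to day 6. There 5 of the 7 collagens fell and 1 rose, where 27.1% of all tested genes fell and 19% rose. Of 11 tested matrix receptors 8, 9 and 7 were higher in the same order and 1 was lower in each, *Itgb3*. *Itga5*, the alpha chain of the fibronectin receptor, rose by 1.41, 2.09 and 1.01. Of 7 latent TGF-β binders and ligands 5, 7 and 4 were higher, and 1 was lower in siWdr5 (*Ltbp4*). *Ltbp2* rose by 1.67, 1.45 and 1.09 and *Tgfb3* by 1.55, 2.24 and 1.71. Of 6 further hyaluronan genes 2, 3 and 2 were higher and 2 were lower in siBrca1 (*Has3* and *Hapln1*), and *Cemip*, which degrades hyaluronan, rose by 1.55, 1.38 and 1.04. Of 13 tested relatives of fibronectin, fibrillin and thrombospondin, which include *Fbn1* and *Fbn2*, 8, 7 and 4 were higher. *Ctgf* had the largest change there with 2.41, 3.14 and 1.82. Of 7 other leucine-rich proteoglycans 2 could be tested, *Optc* and *Podn*, of which 1, 2 and 2 were higher. The chondrocyte markers, which *Comp* and the matrilins accompany in cartilage, summed to 22.0 to 25.4 CPM in the nt control at day 3 to 74.1 to 78.7 CPM in siWdr5, to 51.2 to 56.7 CPM in siBrca1 and to 38.0 to 42.5 CPM in siBard1. *Col2a1* was at 47.0 and 49.8 CPM in siWdr5, and *Matn1* was not in the table. Their part in the *Comp* and matrilin levels was not tested.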

How the data were processed

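RNA was measured in 16 libraries of siRNA-treated mouse fibroblasts. Per the study's methods, total RNA was depleted of ribosomal RNA (Kapa kit), sequenced as paired ends and aligned to mm10 with STAR 2.5.2b, and the authors deposited log2 CPM values made with edgeR 3.20.9. The strand setting of the counting is not given in the sources used here. Whole reads were recovered from the deposited log2 values by removing the prior count (100% of values within 0.01 of a whole read). Differences were tested on the deposited log2 CPM values with limma 3.58.1 (R 4.3.3, trended moderation, two-sided, Benjamini-Hochberg adjustment over the 14028 genes whose log2 CPM averaged 0 or more), with the 8 libraries of a day in a fit, and all 16 for comparisons across days. Fold changes are on that log2 scale, whose prior count understates the change of scarce genes. Intervals are 95% and are those of a difference between group means. They and the SE use a spread pooled over all groups of the fit and moderated across genes. The spread of the compared groups alone, with 2 libraries each, can differ from it.

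Values in every library were given for members among the 5 largest changes of a comparison, the 5 highest levels per kb, those passing in a knockdown at day 6 and those passing against the common direction, and for others where a result turned on them. The other members are given by ranges. The members, role groups, marker lists and other matrix lists were chosen with earlier results of these data known. Gene positions and exon lengths came from GENCODE vM21 (GRCm38) and promoters from RefSeq (GRCm38.p6). Alternatives were other filters, another pseudocount, other fits, centring, a fold threshold, a replicate block, limma-voom on recovered reads (which called 3148 genes for siWdr5 at day 6, against 3060) and leaving out each library. The fit was tested on simulated data. Scripts used Python 3.11.15, pandas 2.3.3, numpy 2.4.6 and matplotlib 3.10.9.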

Additional observations from a re-analysis of the deposited data

Results flagged for a closer look

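The effects below differed between day 3 and day 6 by the interaction test (limma, adjusted p < 0.05), given as the day 6 minus the day 3 log2 fold change. In siWdr5 the differences were -2.15 for *Postn*, -1.99 for *Lum*, -1.66 for *Spp1*, -1.27 for *Dcn* and 1.58 for *Has2*. In siBrca1 they were -1.91 for *Mfap5*, -1.24 for *Postn*, -1.17 for *Bgn*, -1.13 for *Spp1*, -1.10 for *Nid1*, -1.0 for *Ecm1*, -0.98 for *Tnc*, -0.90 for *Emilin1*, -0.78 for *Nid2*, -0.61 for *Serpinh1* and 0.86 for *Tgfbi*. In siBard1 the difference was 1.46 for *Tgfbi*. The targeted genes were themselves less reduced at day 6 than at day 3, and the part of this in the differences was not tested.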

How the results depend on the processing

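With 2 libraries per group, single libraries decided many calls. Leaving out 1 library at a time gave 25 to 28 passing genes for siWdr5 at day 3, 23 to 28 for siBrca1, 4 to 13 for siBard1, 4 to 17 for siBrca1 against siWdr5, 0 to 23 for siBrca1 against siBard1 and 7 to 18 for siWdr5 against siBard1. At day 6 it gave 1 to 22 for siWdr5, 0 for siBrca1 and 0 to 6 for siBard1, for the nt control course 19 to 22, and for the interactions of siWdr5, siBrca1 and siBard1 with day 0 to 4, 3 to 13 and 0 to 2. A fit of a group left with 1 library assumes that it varies like the others.

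Requiring also an absolute log2 fold change above 1 left 17, 14 and 2 genes for siWdr5, siBrca1 and siBard1 at day 3, 4 for siBrca1 against siWdr5, 3 for siBrca1 against siBard1, 5 for siWdr5 against siBard1 and 5 for the siBrca1 interaction. Without the filter on low values there were 10 for siBard1 at day 3, 12 for siBrca1 against siBard1 and 3 for the siWdr5 interaction. With all 16 libraries in the fit there were 9 for siBard1 at day 3, 7 for siBrca1 against siWdr5, 10 for siBrca1 against siBard1, 1 for siBrca1 at day 6 and 10 for siBard1 at day 6. Without a trend in the moderation there were 8 for siBard1 at day 3, and 0 for siBrca1 against siBard1, siBard1 at day 6 and the siWdr5 and siBard1 interactions. With only the compared groups in the fit there were 8 for siBrca1 against siBard1, 9 for the siWdr5 interaction and 4 for that of siBard1. After centring there were 3 and 2 for these interactions. The cause of these differences was not tested.

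Replicate numbers were shared between groups, but the deviations of same-numbered libraries did not correlate above 0.1 in every pair of groups (r = -0.09 to 0.07 at day 3 and -0.07 to 0.26 at day 6, where 3 of 6 pairs were at 0.17 to 0.26), so the numbers were not used as pairs. With the replicate number as a block, 2 genes passed in the siBard1 interaction in place of 1, and the other counts of the 36 genes stayed within 1.5 times. Over all genes 48 passed for siBard1 at day 6 in place of 11. Over all single genes and settings 2090 calls kept their side of the threshold, 428 did not, and 0 changed direction.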

Other observations

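The 2 siBard1 libraries of day 6 differed in several of the genes. Replicate 1 was higher than replicate 2 for *Fmod* (50.5 against 13.5 CPM), *Prelp* (101 against 40.6 CPM), *Thbs1* (2263 against 979.9 CPM) and *Bgn* (549 against 338 CPM), and the smooth muscle markers summed to 631 against 259 CPM. Replicate 2 was higher for *Eln* (10.5 against 2.39 CPM) and *Postn* (137 against 69.9 CPM). *Ogn* differed likewise at day 6 between siWdr5 replicates 1 and 2 (4.41 and 13.1 CPM) and between those of siBrca1 (3.43 and 15.6 CPM).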
